A study of Mus musculus with 2 samples.

Results

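Replication-dependent histone genes encode the H1 linker histones and the core histones H2A, H2B, H3 and H4 that package newly copied DNA. The members described here are all genes whose symbol begins with Hist1h, Hist2h, Hist3h or Hist4h and that had at least 1 UMI (unique molecular identifier, a tag that marks 1 captured RNA molecule) in either library. Of 31053 genes listed, 67 symbols fitted, and 65 of them had a UMI. They comprise 6 H1, 17 H2A, 17 H2B, 12 H3 and 13 H4 genes. The Hist1 cluster on chromosome 13 holds 53 of them, between positions 21715763 and 23934851 of GRCm38, the assembly also named mm10. Another 9 lie on chromosome 3, 2 on chromosome 11 and 1 on chromosome 6. They were set against 4 variant histone genes, H2afz, H2afx, H3f3a and H3f3b. Of these, H2afx carries the histone stem-loop and followed the split by Mki67 and Top2a described below, so it is not taken as replication-independent.

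In dividing cells, transcription of these genes is switched on at the start of S phase through NPAT, and their mRNAs are degraded when DNA synthesis stops. Most of their mRNAs carry no introns and no poly(A) tail. They end just past a conserved stem-loop that is bound by SLBP and cut with the help of the U7 small nuclear ribonucleoprotein. Variants such as H2A.Z and H3.3 are made outside S phase as well, mostly from spliced and polyadenylated mRNAs. A macrophage culture from bone marrow contains dividing precursors because M-CSF (macrophage colony-stimulating factor) drives both proliferation and differentiation.

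RNA was counted in single cells of bone marrow derived macrophage cultures from wild-type 129Sv mice. Both cultures were kept in RPMI with 50 ng/ml M-CSF and 10% FBS. The THP group received, on day 7 and for 18 h, 1 µg/ml of Tamm-Horsfall protein (THP, or uromodulin, a kidney protein) in a truncated form that cannot polymerize. The vehicle group received 5% dextrose over the same period. There was 1 library per group, so no difference between them has a replicate check, no test was possible and no p-value is given. Treatment cannot be told apart from culture dish or library preparation. The sources used here do not state the age or number of the mice.

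The filter on cells kept 12123 cells with 224825484 UMIs in the THP library and 10978 cells with 207662132 UMIs in the vehicle library. Median UMIs per cell were 16113 and 17223. The macrophage genes Csf1r, Adgre1 and C1qa stood at 244, 353 and 252 CPM (UMIs of a gene per 1000000 UMIs) with THP and at 227, 235 and 205 CPM with vehicle. The libraries shared 42 cell barcodes, 38 of them among kept cells. Fewer dividing cells and less histone RNA per dividing cell cannot be told apart in a summed library value, so the members are also given in sets of cells below.

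The histone stem-loop was found in an annotated transcript of 45 members, 25 of them in the form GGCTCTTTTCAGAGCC. Windows of the members on which the results turn are shown with the stem-loop in capitals, from the GENCODE M21 annotation of GRCm38. The sequences are given as DNA, 5′ to 3′ on the gene's strand.
Hist1h1e, chr13:23621777-23621802, minus strand: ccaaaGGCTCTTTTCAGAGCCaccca
Hist1h1c, chr13:23739507-23739532, plus strand: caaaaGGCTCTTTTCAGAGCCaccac
Hist1h2ae, chr13:23570663-23570688, minus strand: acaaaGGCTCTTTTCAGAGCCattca
Hist1h3c, chr13:23745042-23745067, minus strand: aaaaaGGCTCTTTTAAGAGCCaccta
Hist1h4i, chr13:22040961-22040986, minus strand: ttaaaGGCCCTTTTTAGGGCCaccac
Hist3h2a, chr11:58955167-58955192, plus strand: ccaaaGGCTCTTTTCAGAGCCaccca
H2afx, chr9:44335235-44335260, plus strand: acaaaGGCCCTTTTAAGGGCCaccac
H2afx was the only one of the 4 variants with a stem-loop. The annotated transcripts of Hist1h1b, the member with the most UMIs, and of Hist1h1a and Hist1h2bc held none. Sequence past the annotated ends was not searched, so this does not show that these genes lack one.

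The method captures RNA through runs of A, and the longest annotated transcripts of the leading members hold such runs. The window of 20 bases with the most A is shown for 3 members, with A in capitals.
Hist1h1b, chr13:21780475-21780494, minus strand: AAgAAgAAgAcAAcgAAAAA
Hist1h1e, chr13:23621842-23621861, minus strand: AAAAccgcAgccAAgAAAAA
Hist1h2ap, chr13:21833045-21833064, minus strand: ccgAAAAgAAAAAAAAAAAA
The windows of Hist1h1b and Hist1h1e lie in coding sequence, which in H1 genes encodes a lysine-rich tail, and the window of Hist1h2ap holds a run of 12 A. Such runs were not particular to the leading members. Hist1h2ao holds the same window as Hist1h2ap and had 42 UMIs in each library. Hist1h2ac holds a run of 15 A and had 647 UMIs with THP and 1028 with vehicle. Whether UMIs came from such runs or from polyadenylated forms was not tested. UMIs of near-identical copies can be assigned to one another. In 31 of the 65 members, fewer than 50% of the 50-base stretches of the transcript were unique to the gene, and in Hist1h2ap the unique share was 6.93%, so values of single copies are uncertain.

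Histone RNA made up a smaller part of all UMIs in the THP library than in the vehicle library. The 65 members together stood at 845 CPM (exact Poisson 95% interval 841 to 849) with THP and at 2324 CPM (2318 to 2331) with vehicle. This is 2.75-fold lower with THP (2.74 to 2.77, counting error only), or a log2 ratio of -1.46. In UMIs, the sums were 189955 and 482699. The proliferation genes Mki67 and Top2a were lower too. Mki67, the Ki-67 protein gene, stood at 245 against 503 CPM, a log2 ratio of -1.04. Top2a, the topoisomerase that untangles replicated DNA, stood at 356 against 592 CPM, a log2 ratio of -0.73.

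The 4 variants together did not follow the members, with 6013 CPM (6003 to 6023) with THP and 5716 CPM (5706 to 5726) with vehicle, a log2 ratio of 0.07. H2afz, which encodes H2A.Z, stood at 2244 against 2108 CPM. H2afx, which encodes the H2A.X form phosphorylated at DNA breaks, stood at 219.6 against 227 CPM. H3f3a and H3f3b, which both encode H3.3, stood at 1809 against 1821 CPM and at 1740.4 against 1559 CPM. Their log2 ratios of 0.09, -0.05, -0.01 and 0.16 all lay within 2-fold, and those of H2afx and H3f3a had the opposite sign under TMM scaling.

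Of the 65 members, 53 reached 1 CPM in at least 1 library. Among them 20 were at least 2-fold lower with THP on the log2(CPM + 1) scale (37.7%, against 2.83% of all 11508 genes at that level). None was 2-fold higher, against 0.860% of all genes. The 53 included 44 that reached 1 CPM in both libraries, of which 19 were 2-fold lower, 8 that reached it only with vehicle and 1 only with THP. The median log2 ratio was -0.82 for the 53 members and -0.21 for all genes. A ratio below 0 was found in 51 of the 53, or in 48 under TMM scaling. Scaling by TMM factors raised all ratios and moved the median of all genes to 0.05. Under it the members' median was -0.59, and 14 members were at least 2-fold lower, against 0.837% of all genes.

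**Figure D1:**
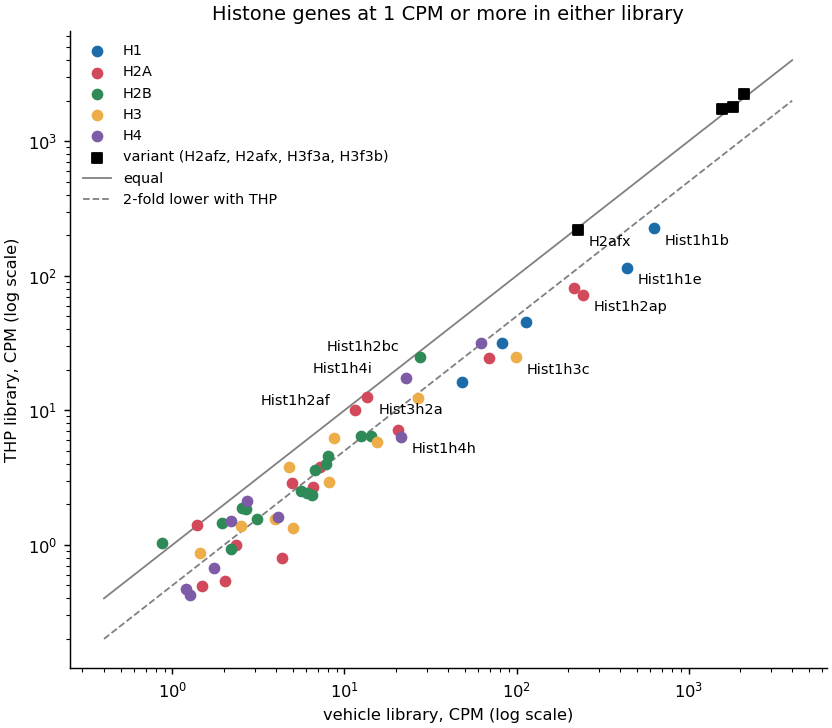
Level of each histone gene with 1 CPM or more in either library, vehicle on the x axis and THP on the y axis, both in CPM on log scales. Circles are the 53 members coloured by family and squares the 4 variants. The solid line marks equal levels and the dashed line a level 2-fold lower with THP. The linker genes Hist1h1b and Hist1h1e lie under the dashed line, and the variants and Hist1h2bc lie near the solid line.

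Linker histone genes held more than any other family, 51.2% of member UMIs with THP and 56.4% with vehicle, in UMIs not divided by length. The 6 H1 genes summed to 433 against 1311 CPM, a log2 ratio of -1.60, and 5 of the 5 that reached 1 CPM were at least 2-fold lower. For this count and those of the other families, the share of all genes at least 2-fold lower was 2.83%. Hist1h1b, which encodes H1.5, stood at 225 CPM (223 to 227) with THP and 628 CPM (625 to 632) with vehicle, 2.79-fold lower. It lies on chromosome 13 (ENSMUSG00000058773, 21779883 to 21780625, minus strand). Hist1h1e, which encodes H1.4, stood at 114 CPM (113 to 116) against 439 CPM (436 to 442) and was 3.85-fold lower, a wider gap than that of Hist1h1b. Hist1h1c (H1.2) stood at 45.5 against 114 CPM, Hist1h1d (H1.3) at 31.9 against 81.8 CPM and Hist1h1a (H1.1) at 16.2 against 48.2 CPM. Hist1h1t, the testis form, had 7 and 2 UMIs.

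The H2A genes, whose proteins form the outer dimers of the nucleosome with H2B, summed to 220.4 against 605 CPM, a log2 ratio of -1.45. Of 14 that reached 1 CPM, 6 were at least 2-fold lower. Hist1h2ap stood at 71.9 CPM with THP and 243 CPM with vehicle, a log2 ratio of -1.74. Hist1h2ae stood at 80.6 against 217 CPM, Hist2h2ac at 24.3 against 69.2 CPM and Hist2h2aa1 at 7.08 against 20.4 CPM. The H2A family also held members near 0: Hist3h2a had 12.5 against 13.6 CPM, a log2 ratio of -0.11 that was 0.15 under TMM scaling. Hist1h2af, singled out after its values were seen, had 10.0 against 11.5 CPM, a log2 ratio of -0.18 that was 0.08 under TMM scaling.

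The H3 genes, whose products carry many of the best known tail modifications, summed to 61.8 against 177 CPM, a log2 ratio of -1.50. Of 10, 5 were at least 2-fold lower. Hist1h3c stood at 24.7 CPM (24.0 to 25.3) with THP and 99.4 CPM (98.1 to 101) with vehicle, the lowest log2 ratio of all members at -1.97. Hist1h3e stood at 12.4 against 26.6 CPM and Hist1h3i at 5.80 against 15.4 CPM.

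H2B and H4 genes differed less between the libraries. The H2B genes summed to 66.6 against 109 CPM, a log2 ratio of -0.70, and 3 of 15 were at least 2-fold lower. Hist2h2bb was one of them, with 6.47 against 14.3 CPM. Hist1h2bc, the H2B member with the most UMIs, stood at 25.1 CPM (24.5 to 25.8) with THP and 27.6 CPM (26.9 to 28.4) with vehicle, a log2 ratio of -0.13 that had the opposite sign under TMM scaling. Without a length correction, Hist1h2bc alone held 2.97% of all member UMIs with THP and 1.19% with vehicle. The H4 genes summed to 63.3 against 122 CPM, a log2 ratio of -0.93. Among H4 genes, Hist1h4h passed 2-fold with 6.33 against 21.3 CPM, Hist1h4d stood just inside it with 31.7 against 62.4 CPM, and Hist1h4i had 17.4 against 22.8 CPM. The 12 members under 1 CPM in both libraries had 1489 UMIs in all and are not interpreted singly.

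Per kilobase of the longest annotated transcript, Hist1h1b stood at 303 CPM per kb with THP and 846 with vehicle. On this scale it lay above H2afx (159 and 164 CPM per kb) and below H2afz (2099 and 1972 CPM per kb). Counts of tagged transcript ends do not grow with length in the way that fragment counts do, so this scale is a rough one.

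Cells were then divided by whether they held an Mki67 or a Top2a UMI, as a rule of thumb for dividing cells. At least 1 such UMI was found in 8483 THP cells (70.0%, exact binomial 95% interval 69.1 to 70.8) and in 8098 vehicle cells (73.8%, 72.9 to 74.6). Depth moved with this split. Median UMIs were 19544 and 20573 in cells with such a UMI and 5896.5 and 4259.5 in the others. After each cell was thinned to 5000 UMIs, which left out 1958 and 1966 shallower cells, the shares were 67.5% and 75.6%. Mature neutrophils do not divide, and in the gate of mature neutrophil markers the share was 8.91% with THP and 12.1% with vehicle, at median depths of 2217 and 1998 UMIs.

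Nearly all histone RNA came from cells with an Mki67 or Top2a UMI, 96.8% of member UMIs with THP and 98.3% with vehicle, where these cells held 85.9% and 89.5% of all UMIs. These cells stood at 952 CPM (948 to 957) against 192 CPM (187 to 197) in the other cells of the THP library, a log2 ratio of 2.30. In the vehicle library the log2 ratio was 2.74, with 2553 CPM (2546 to 2561) in the first set and 382 CPM (373 to 389.8) in the second. Of the members at 1 CPM or more, 32 of 46 with THP were at least 2-fold higher in these cells (69.6%, against 4.19% of all genes). With vehicle they were 39 of 53 (73.6%, against 5.59% of all genes). A gene entered these counts at 1 CPM in either set, so some members passed only through the cells where they were high. Hist1h2af, for example, had 11.7 against 0.252 CPM with THP and 12.8 against 0.274 CPM with vehicle. The counts were not divided by this, and the shares of all genes used the same rule. The variants together were 1.47-fold higher with THP and 1.56-fold higher with vehicle.

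Single members differed widely in this split. Hist1h1b stood at 261 against 8.11 CPM in the THP library and at 701 against 14.6 CPM in the vehicle library, 32.1-fold and 47.9-fold higher in cells with an Mki67 or Top2a UMI. Hist1h3c was 21.1-fold and 46.7-fold higher, Hist1h2ap 19.4-fold and 22.2-fold, and Hist1h2ae 11.6-fold and 20.9-fold. These 4 had the highest mean ratios on the log2(CPM + 1) scale among the 58 members with at least 100 UMIs. By plain fold the order would differ. Hist1h2af, at 46.4-fold and 46.9-fold from 8 and 6 UMIs in the other cells, would rank among the highest. Other members would lie above Hist1h2ae in both libraries, such as Hist1h1a (16.5-fold and 32.6-fold) and Hist1h3i (11.8-fold and 47.0-fold). Hist1h1c was far less tied to the split, with 48.5 against 27.0 CPM and 122 against 47.8 CPM.

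The 4 members at the other end were Hist1h2bc, Hist1h4i, Hist3h2a and Hist2h3c2. Hist1h2bc stood at 21.9 CPM in cells with an Mki67 or Top2a UMI and 44.9 CPM in the others with THP, and at 24.5 and 54.4 CPM with vehicle. Hist1h4i stood at 16.3 and 23.9 CPM with THP and at 18.6 and 58.2 CPM with vehicle. Hist3h2a stood at 12.9 CPM with THP and 18.2 CPM with vehicle in the other cells, with log2 ratios of -0.05 and -0.45 across the split. Hist2h3c2, with 173 and 175 UMIs in all, was below 1 CPM in each library as a whole. Over all kept cells, Hist1h2bc and Hist1h4i had the higher level in cells without an Mki67 or Top2a UMI in both libraries, against the name of the gene group. For Hist3h2a the intervals of the 2 sets were apart only with vehicle, and for Hist2h3c2 they overlapped in both libraries. Among the marker gates described below, Hist1h2bc showed no clear difference in the mature neutrophil gate. Cells without an Mki67 or Top2a UMI had 54.8 CPM with THP and 78.7 CPM with vehicle, against 55.7 and 77.2 CPM in all cells of the gate. In the granule neutrophil gate with vehicle both values were 25.4 CPM. In the macrophage gate with THP they were 46.9 against 24.8 CPM, with intervals apart. The direction of Hist1h4i did not hold in every marker gate either. In the MHC class II gate its cells without such a UMI had 8.64 CPM (5.28 to 13.3) with THP and 7.12 CPM (3.79 to 12.2) with vehicle, against 13.6 and 15.3 CPM in all cells of the gate. In the granule neutrophil gate they had 34.8 and 32.7 CPM, against 40.4 and 37.6 CPM in all cells of the gate. In the monocyte gate they had 19.2 and 17.5 CPM, against 19.9 and 20.3 CPM. The intervals overlapped in both of these gates. In the macrophage gate with THP they had 13.8 CPM (11.7 to 16.2) against 12.4 CPM (11.7 to 13.1). With vehicle Hist1h4i was slightly lower in these cells than in the gate, at 5.90% of their 214 CPM of members. In the mature neutrophil gate they had 76.2 and 116 CPM, against 65.8 and 107 CPM. The intervals overlapped in the macrophage gate with THP and in the mature neutrophil gate in both libraries. Only Hist1h2bc was at least 2-fold lower in cells with such a UMI with THP (1 of 46, or 2.17%, against 3.28% of all genes), and Hist1h2bc and Hist1h4i were with vehicle (2 of 53, or 3.77%, against 4.78%). Among variants, H2afx stood at 250.4 against 33.2 CPM and at 251 against 23.8 CPM, a split close to that of many members. H3f3a stood at 1800.1 against 1862 CPM and at 1812 against 1896 CPM, a small difference in the other direction with intervals apart in both libraries.

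**Figure D2:**
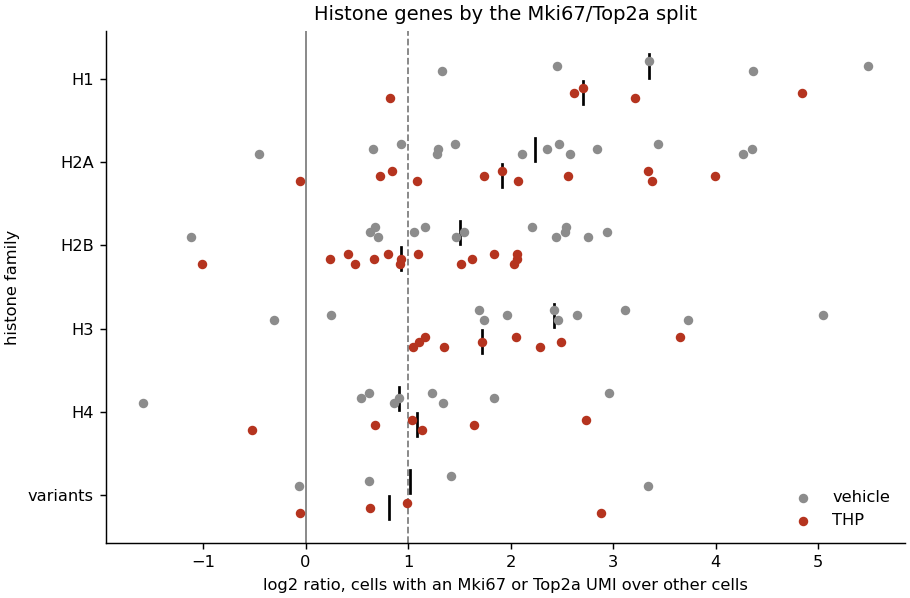
Log2 ratio of CPM + 1 in cells with an Mki67 or Top2a UMI over other cells, on the x axis, for each histone gene at 1 CPM or more in either set, by family on the y axis. Grey points are the vehicle library, red points the THP library and black bars the medians; the dashed line marks 2-fold. Most members lie to the right of the dashed line. The members Hist1h2bc, Hist1h4i and, only slightly with THP, Hist3h2a lie left of 0 in both libraries.

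The difference between libraries was present on both sides of the split. In cells with an Mki67 or Top2a UMI the summed members had a log2 ratio of -1.42, THP over vehicle, and 19 of 53 were at least 2-fold lower (35.8%, against 2.68% of all genes). None was 2-fold higher, against 0.901% of all genes. In the other cells it was -0.99, and 6 of 26 were at least 2-fold lower (23.1%, against 5.58% of all genes) and 0 higher (against 0.848%). Hist1h1e stood out among the latter with 20.2 CPM (18.7 to 21.9) with THP and 87.3 CPM (83.4 to 91.3) with vehicle. Hist1h3a and Hist2h2be had the opposite sign there, with 1.32 against 0.914 CPM (42 and 20 UMIs) and 1.13 against 0.868 CPM (36 and 19 UMIs). Hist1h3i, under 1 CPM there and so not among the 26, did too, with 0.566 against 0.365 CPM from only 18 and 8 UMIs. The variants together had log2 ratios of 0.08 and 0.17 on the same sides of the split. Within the marker gates described below, the summed members in cells without such a UMI had log2 ratios of -1.07 (mature neutrophil) and -0.89 (MHC class II). They had -0.75 (granule neutrophil), -0.71 (monocyte) and -0.49 (macrophage), and -0.85 in ungated cells. The mature neutrophil gate held 552 of these cells with THP and 803 with vehicle, so -0.99 also mixes unlike cells.

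Cells of the THP library also held fewer Mki67 and Top2a UMIs each, so cells were set side by side in 7 bins of Mki67 plus Top2a UMIs per 10000. At 20 or more per 10000 there were 242 THP cells (2.00%) and 1797 vehicle cells (16.4%), with 2295 against 4787 CPM of members. From 10 to 20 the members stood at 1619 against 3351 CPM, and from 5 to 10 at 1061 against 1679 CPM. From 2 to 5 they stood at 602 CPM (595 to 609.8) with THP and 557 CPM (547 to 567) with vehicle, a log2 ratio of 0.11, the only bin in which THP was the higher. The bins from 1 to 2 and from 0 to 1 had 247 against 341 CPM and 164 against 264 CPM. With the same mix of these bins in both libraries, an alternative chosen after seeing the data, the summed members had a log2 ratio of -0.88 in place of -1.46 and 6 of 51 members were at least 2-fold lower, against 2.00% of all genes. Hist1h2af went the other way at matched bins, with 12.1 against 6.75 CPM from 5 to 10 and 23.4 against 17.0 CPM from 10 to 20.

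Cells with an Mki67 or Top2a UMI and at least 10 UMIs of the S phase and G2/M lists were ranked by the S share of those UMIs and divided into 4 equal groups, group 1 with the lowest S share. Neither list held Mki67, Top2a or a member in this ranking. Members stood at 825, 1216, 1175 and 566 CPM in groups 1 to 4 with THP and at 2511, 3751, 3049.7 and 828 CPM with vehicle. The level was thus highest in the middle of the range in both libraries, and lowest where S phase genes such as those for MCM helicases outweighed G2/M genes most. Mki67 plus Top2a fell along the same groups, with 984, 826, 676 and 319 CPM with THP. With vehicle they had 1825, 1535, 1127 and 390.2 CPM. Group 4 was thus also the group with the least Mki67 and Top2a, and the 2 were not separated. In the vehicle library, 47 of 57 members at 1 CPM or more were highest in group 2 (82.5%, against 15.6% of all genes), and in the THP library 25 of 48 (52.1%, against 14.0%). Group 3 was highest for 7 with vehicle (12.3%, against 21.7%) and 19 with THP (39.6%, against 16.5%). No member was highest in group 4, against 30.5% of all genes with vehicle and 32.2% with THP. Group 1 was highest for 3 with vehicle (5.26%, against 32.2%), Hist2h2ab, Hist2h3c2 and Hist3h2a, and for 4 with THP (8.33%, against 37.3%), Hist2h3c2, Hist3h2a, Hist3h2ba and Hist1h2bc.

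Members of 1 family did not all share a place on this range. Hist1h1a was highest in group 3 in both libraries, with 94.4 CPM there and 25.7 CPM in group 1 with vehicle. Hist1h1b had 905 CPM in group 3, 1034 CPM in group 2 and 609 CPM in group 1 with vehicle, but with THP it too was highest in group 3, with 352 against 335 CPM in group 2. Hist1h4d and Hist1h1c were highest in group 2, with 98.9 and 174 CPM. Hist3h2a was highest in group 1 in both libraries, with 18.5 CPM against 5.17 CPM in group 4 with THP and 18.3 against 5.35 CPM with vehicle. H2afx too was highest in group 1, with 382 against 91.5 CPM and 413 against 61.0 CPM. Between group 1 and group 4, 35 of 53 members were at least 2-fold higher in group 1 with vehicle (66.0%, against 2.38% of all genes) and 5 of 46 with THP (10.9%, against 1.86%). Lower in group 1 by 2-fold were 0 members with vehicle (against 1.40%) and 1 with THP (2.17%, against 1.55%), Hist1h1a with 7.10 against 18.8 CPM.

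**Figure D3:**
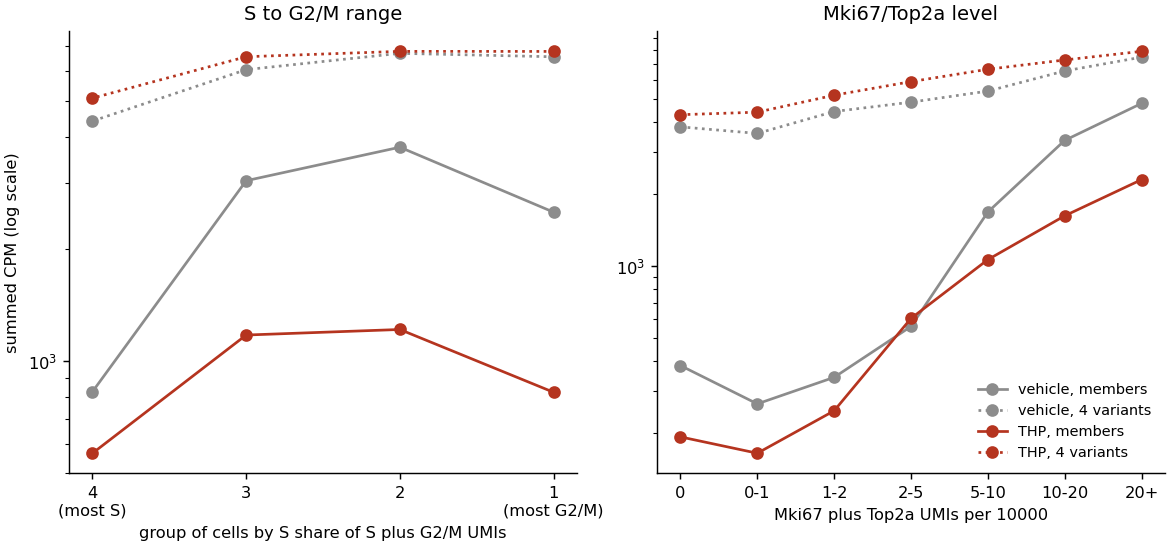
Summed CPM of members (solid lines) and of the 4 variants (dotted lines) on a log scale, for the vehicle library in grey and the THP library in red. The left panel shows 4 groups of cells from most S phase to most G2/M UMIs, and the right panel 7 bins of Mki67 plus Top2a UMIs per 10000. Members are highest in the middle groups on the left, and on the right the lines of the libraries meet only in the bin from 2 to 5.

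Cell types were approximated by gates, in which a cell went to the class whose marker genes were highest, at 0.2 or more of a reference level and at least 2 times the next class. No histone gene was a marker. Gates held 3904 THP and 2409 vehicle cells for macrophage markers, 1332 and 1629 for monocyte markers, and 784 and 867 for MHC class II markers. There were 641 and 879 cells with neutrophil granule markers, 606 and 914 with mature neutrophil markers and 57 and 93 with myeloid progenitor markers. A further 4537 and 3989 cells were ungated, and 36.0% and 29.3% of kept cells had a top score between 0.1 and 0.4, near the limit of 0.2. Mast cell or basophil and B lineage gates had under 50 cells in the vehicle library and were not compared. Doublets were not removed.

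In every gate compared the members were lower with THP and the variants were not. The macrophage gate had 682 CPM of members (677 to 688) with THP and 1738 CPM (1728 to 1749) with vehicle, a log2 ratio of -1.35. The variants in it had 5236 and 4520.5 CPM. The monocyte gate had 1159 against 2931 CPM, a log2 ratio of -1.34, and the MHC class II gate 926 against 2589 CPM, one of -1.48. The granule neutrophil gate had 1425 against 3067 CPM, and the progenitor gate, the highest of those compared, 1804 against 3652 CPM. Stromal and lymphoid gates, with 60 to 82 cells each, had 388 against 670.0 CPM and 904 against 1805 CPM. At least 2-fold lower were 12 of 47 members in the macrophage gate (25.5%, against 2.23% of all genes), 17 of 55 in the monocyte gate (30.9%, against 2.63%) and 18 of 55 in the MHC class II gate (32.7%, against 4.28%). In the granule neutrophil gate they were 14 of 56 (25.0%, against 7.02%) and in the mature neutrophil gate 16 of 36 (44.4%, against 16.8%), the gate with the fewest UMIs per cell. None was 2-fold higher in the macrophage, monocyte, MHC class II and granule neutrophil gates, against 0.906%, 0.790%, 1.06% and 2.57% of all genes. In the mature neutrophil gate Hist2h3c1 was, at about 1 CPM with THP (1 of 36, or 2.78%, against 3.73%). With the same mix of gates in both libraries 16 of 53 members were at least 2-fold lower, against 2.18% of all genes.

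**Figure D4:**
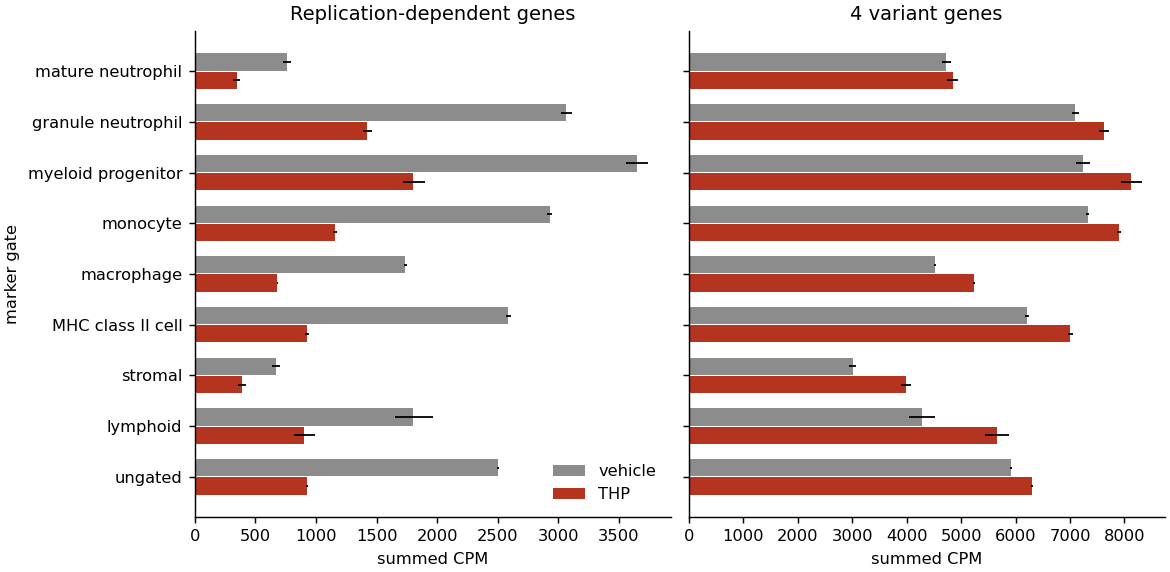
Summed CPM of members (left) and of the 4 variants (right) in each marker gate with at least 50 cells per library and in ungated cells, as bars from 0 for vehicle (grey) and THP (red) with exact Poisson 95% intervals. Every red member bar is shorter than its grey one, from 344 against 761 CPM in the mature neutrophil gate to 1804 against 3652 CPM in the progenitor gate.

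The order of the gates was not the same for every member. Hist1h1b was lowest in the mature neutrophil gate, with 54.6 CPM (44.3 to 66.5) with THP and 104 CPM (92.0 to 118) with vehicle, against 209.7 and 613 CPM in the macrophage gate. Hist1h4i was the reverse, with 65.8 CPM (54.4 to 78.7) and 107 CPM in mature neutrophils and 12.4 and 13.5 CPM in macrophages. Hist1h2bc stood at 55.7 and 77.2 CPM in mature neutrophils, 24.8 and 24.9 CPM in macrophages, and 12.7 and 22.4 CPM in monocytes. Hist1h1e stood at 288 CPM in macrophages and 818 CPM in the granule neutrophil gate with vehicle, and at 88.9 and 242 CPM with THP. No replicate spread stands behind any of these orders.

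Free RNA in droplets can give histone UMIs to any cell, and mature neutrophils served as the cells that should lack new histone mRNA. A Hist1h1b UMI was found in 5.78% of those cells with THP and 7.11% with vehicle, against 45.4% and 53.4% of all kept cells, which were deeper. Among mature neutrophil cells without an Mki67 or Top2a UMI, vehicle had 1153 member UMIs in 803 cells and THP 383 in 552 cells. There were 502 Hist1h1e UMIs per 100 Hist1h1b UMIs in these vehicle cells and 69.9 in the whole vehicle library, and 133 and 50.8 with THP. In the macrophage gate without such UMIs the ratios were 433 and 223. Hist1h4i made up 20.1% (17.8 to 22.6) of the member UMIs of these vehicle neutrophils and 0.980% of those of the whole library. The mix of members thus differed between these cells and the library, and the part of free RNA in the levels was not tested. Barcodes that failed the cell filter had 468 CPM of members with THP and 1005 CPM with vehicle.

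The genes that act on histone mRNA differed less than the members. Of 19 genes of 3′ processing and decay at 1 CPM or more, 0 passed 2-fold in either direction, and the median log2 ratio was -0.21, that of all genes. Among all genes 2.83% were at least 2-fold lower and 0.860% at least 2-fold higher. Slbp, the stem-loop binding protein, stood at 102 CPM with THP and 134 CPM with vehicle, and Eri1, an exonuclease that trims the stem-loop end, at 62.2 against 101 CPM. Snrpf, a core protein of spliceosomal and U7 particles, stood at 319.5 against 254 CPM.

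Of 15 genes of histone gene transcription 1 passed 2-fold, Npat, the coactivator of these clusters, with 12.7 against 29.1 CPM and a log2 ratio of -1.13. Casp8ap2 (FLASH), which works with NPAT at histone locus bodies, stood at 38.0 against 68.8 CPM, and E2f2, an S phase transcription factor, at 12.1 against 23.4 CPM. The median of the list was -0.51. Beside the counts of this paragraph, 2.83% of all genes were at least 2-fold lower and 0.860% at least 2-fold higher. Of 22 histone chaperones, 0 passed 2-fold. Their median was -0.26 and the lowest was Atrx, which loads H3.3 at repeats, with 109 against 209.6 CPM. Chaf1a, the subunit of the chaperone CAF-1 that loads H3 and H4 at forks, stood at 30.6 against 46.6 CPM. Among 11 variant histone genes, H2afx included, 0 passed 2-fold and the median was -0.01. H2afy, which encodes macroH2A1, stood at 522 against 754 CPM.

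S phase genes as a list had a median of -0.33, and 1 of 25, Dtl, a ubiquitin ligase subunit active at forks, was at least 2-fold lower with 17.7 against 40.6 CPM. Clspn, a replication checkpoint adaptor, stood at 46.7 against 86.9 CPM and Mcm4, a helicase subunit, at 54.0 against 94.2 CPM. Among 25 G2/M genes the median was -0.27 and 2 were at least 2-fold lower, Mki67 and the spindle motor gene Kif11 (58.9 against 120.3 CPM). The medians of these lists stand beside -0.82 for the 53 members and -0.21 for all genes. Among all genes 2.83% were at least 2-fold lower, so the counts of 1 and 2 are not read as a result about the lists. In the split by Mki67 or Top2a UMIs, 24 of 25 S phase genes and 10 of 22 chaperones were at least 2-fold higher in the vehicle library, against 5.59% of all genes. In the THP library they were 19 of 25 and 4 of 22, against 4.19%.

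Shared sequence features were compared with the values as a description. The annotated 3′ end lay within 100 bases of the stem-loop in 22 members, of which 10 of 18 at 1 CPM or more were at least 2-fold lower with THP, with a median log2 ratio of -1.04. It lay further on in 23 members, 6 of 20, with a median of -0.73, and 16 of these 23 had a poly(A) signal AATAAA or ATTAAA after the stem-loop. No stem-loop was annotated in 20 members, 4 of 15, with a median of -0.82. Some annotated transcripts of this last group were short, such as 312 bases in Hist1h4k and 381 in Hist1h2bl. Sequence past the annotated ends was not searched. The group is thus one of annotation, not of genes shown to lack a stem-loop. The groups overlapped, with ranges of -1.97 to 0.12, -1.93 to -0.11 and -1.51 to -0.13. Among all genes 2.83% were at least 2-fold lower. Hist1h4i and Hist3h2a, among the 4 lowest in the split, had annotated ends 330 and 1643 bases past the stem-loop with such a signal. Hist1h1c, 840 bases past it, had one too. So did Hist1h2ae, among the 4 highest in the split, at 151 bases. Hist1h4d had one at 770 bases and was 7.93-fold and 8.61-fold higher in cells with an Mki67 or Top2a UMI. Hist2h3c2 and Hist1h2bc, also among the 4 lowest, had no such signal and no annotated stem-loop, respectively. The feature thus did not follow the split. The 2793 genes with transcripts of 312 to 2094 bases, the range of most members, had a median of 0.04.

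RefSeq promoters of GRCm38.p6, 250 bases before to 50 after the start, matched 59 members. CCAAT was present on either strand in 84.7% of them and in 37.4% of all 32851 promoters, TATAAA in 57.6% and 13.6%, and ATTTGCAT, the octamer bound by OCT1, in 20.3% and 1.74%. CCAAT was found in all 47 matched H1, H2A, H2B and H3 members and in 3 of 12 H4 members. The octamer was found in 7 of 16 H2A and 5 of 15 H2B members and in none of the other families. The 150 bases before the RefSeq start are shown for Hist1h1b and Hist1h3c, the 2 highest in the split on the log2(CPM + 1) scale, and for Hist1h4i, at the other end of it, with these motifs of either strand in capitals.
Hist1h1b, chr13:21780626-21780775, minus strand: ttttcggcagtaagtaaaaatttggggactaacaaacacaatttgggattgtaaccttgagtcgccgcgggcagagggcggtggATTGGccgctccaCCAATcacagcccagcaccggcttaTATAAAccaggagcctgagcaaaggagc
Hist1h4i, chr13:22041363-22041512, minus strand: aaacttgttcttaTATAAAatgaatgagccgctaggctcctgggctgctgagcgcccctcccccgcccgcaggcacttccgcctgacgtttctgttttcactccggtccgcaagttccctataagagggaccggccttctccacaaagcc
Hist1h3c, chr13:23745522-23745671, minus strand: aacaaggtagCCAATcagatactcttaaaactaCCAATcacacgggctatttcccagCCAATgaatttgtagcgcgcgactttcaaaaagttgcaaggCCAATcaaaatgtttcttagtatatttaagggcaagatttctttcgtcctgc
A match says only that these letters are present. In the stretches shown, Hist1h1b holds CCAAT and TATAAA, Hist1h3c holds CCAAT, and Hist1h4i holds TATAAA and no CCAAT. Most H4 members lacked CCAAT, and Hist3h2a, also among the 4 lowest in the split, holds CCAAT and the octamer. The motifs shown thus do not set the 2 ends of the split apart.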

How the data were processed

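The files deposited hold raw UMI counts for each gene in each cell barcode, with software version 3.1.0 and matrix format 2 per the file headers. Cell Ranger, STAR, bcl2fastq and the build mm10 are named per the submitters' processing notes, without versions. The sources used here do not state the annotation release. Sequences came from GENCODE M21 (GRCm38) and RefSeq (GRCm38.p6).

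Barcodes with at least 500 genes, at least 1000 UMIs and at most 10% mitochondrial UMIs were kept. No doublet caller was run. UMIs were summed per library or set of cells and divided by the total to give CPM. Ratios are log2 of CPM + 1, which understates low genes. A gene counted as measured at 1 CPM in either set, and as higher or lower at 2-fold. This size rule stands in for a test. Intervals are exact Poisson or Clopper-Pearson at 95% and cover counting error only. Scaling factors came from edgeR 4.0.16 in R 4.3.3, the rest from Python 3.11.15 with numpy 2.4.6 and scipy 1.17.1. The size rule was also run on counts simulated from the vehicle library alone, with counting error only. It recovered 100.0% of 200 genes, among 11477 measured, that were changed by more than 2-fold at 10 CPM or more. No spread between libraries and no change in genes under 10 CPM was simulated. The run is thus a check of the calculation only, not of the comparison of THP with vehicle.

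Members and lists were chosen with earlier results of these data known. Named are the 12 members with most UMIs, members at 10 CPM or more and 2-fold different, the 4 highest and 4 lowest in the split among members with at least 100 UMIs, the variants, Mki67, Top2a and, from the 5 genes per list with the largest ratios at 10 CPM or more, those described. Alternatives were other scaling, cell and gene filters, pseudocounts, fold limits, weights and cell mixes.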

Additional observations from a re-analysis of the deposited data

Results flagged for a closer look

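Top2a, a gene of the split and no member, differed in direction between gates, with Poisson intervals of THP and vehicle apart in each. Its log2 ratio, THP over vehicle, was 0.64 in the lymphoid gate (478 against 307 CPM, 82 and 60 cells). It was -0.82 in the MHC class II gate, -0.84 in the granule neutrophil gate, -0.63 in the macrophage gate, -0.68 in the monocyte gate and -0.62 in the myeloid progenitor gate. The difference between gates was not tested. No named member or variant had intervals apart in opposite directions in different gates.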

How the results depend on the processing

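No paired analysis was possible because each group had 1 library, and for the same reason no replicate could be left out. The sum of members stayed lower with THP in every alternative run. It lost its 2-fold size in cells without an Mki67 or Top2a UMI (log2 ratio -0.99) and with the same mix of 7 Mki67/Top2a bins (-0.88). The members' median passed 2-fold with a pseudocount of 0.1 (-1.15) and at 10 CPM or more (-1.32). The number of members past 2-fold was 11 with a pseudocount of 5 (0.973% of all genes were lower), 6 in cells without an Mki67 or Top2a UMI (5.58%) and 6 with the same mix of bins (2.00%). Past a fold limit of 1.5 there were 37 (17.4% of all genes were lower). At 10 CPM or more, 11 of 15 members with THP and 17 of 20 with vehicle were 2-fold higher in cells with an Mki67 or Top2a UMI, against 4.83% and 6.76% of all genes. The share of such cells, THP and vehicle, was 67.2% and 72.0% over all barcodes, 68.4% and 72.5% without the top 5% of cells by UMIs, 67.5% and 75.6% when thinned, and 55.6% and 61.7% at 3 or more UMIs. Of 97 alternative values of these summaries, 79 kept their direction and side of 2-fold or stayed within 1.5 times. Among single members, Hist1h3i turned to 0.20 in cells without an Mki67 or Top2a UMI. The bins, the shared barcodes, the unique members and the sum without the 4 leading members were alternatives chosen after seeing the data. The causes of these shifts were not tested. Depth limits little in the library sums, while gates with under 100 cells and members under 100 UMIs are limited by depth.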
